A study of Solanum lycopersicum with 30 samples.

Results

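Leaves of a TMV-susceptible tomato line, genotype n, were compared 3 h after their challenge with sap that held tobacco mosaic virus (TMV) and 3 h after a mock treatment with plain leaf sap. The comparison rests on 3 of the 30 arrays of the study, which are all the arrays titled for susceptible plants at 3 h. Each array was a 2-colour cDNA array that carried Cy3-labelled RNA of a TMV-challenged plant and Cy5-labelled RNA of a mock-treated plant, so 1 array is 1 replicate. Both plants of an array had the n genotype and had grown for 28 to 35 days in soil mix at 25 °C under 16 h of light and 8 h of dark. Each RNA sample, 25 µg of total RNA for labelling, came from a single plant, and the labels do not say whether the sampled leaf was the one that received the sap. The other groups used below are susceptible leaves at 9 and 27 h (3 arrays each), leaves of sun1-1 at 3 h (3 arrays) and leaves of the resistant N line at 3 h (4 arrays), each hybridised as TMV against mock of the same genotype and time. Resistant and sun1-1 leaves at 9 and 27 h were hybridised in the same way and are named where used. The sun1-1 mutant carries N and shows enhanced susceptibility, so the n line is the single genotype here without N.

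TMV is a positive-strand RNA virus that enters leaf cells through wounds, is uncoated and translated in the cytoplasm, and then spreads from cell to cell through plasmodesmata with the help of its movement protein. In plants that carry N, a resistance gene from tobacco, an intracellular immune receptor recognises the viral replicase and sets off salicylic acid signalling, PR gene expression and a local cell death that holds the virus. A susceptible plant lacks that receptor, and the first hours after the sap is applied combine viral entry, wounding and any defence that does not need N.

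The values are log2 ratios of the 2 channels as the authors deposited them. The array titles name mock before TMV, and mock RNA carried Cy5, the channel that is on top of the ratio by default in limma, but no label states which channel is the numerator. The dyes were the same way round on all arrays. Every sign below is that of the deposited file, where positive stands for more signal in the channel on top, be it TMV or mock. Turning every array would exchange positive and negative throughout and would change no size, p-value or count of calls. A ratio gives no level, so the leaf label could not be set against marker levels. PSBR, a photosystem II subunit of green tissue, had measurable ratios for 6 clones.

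The array held 15360 clones, each spotted as a pair, and 8219 of them had a value on at least 2 of the 3 arrays (6563 on all 3). Of those 8219, 732 carried a single gene symbol. The arrays of replicates 1, 2 and 3 gave values for 8938, 7820 and 7608 clones, within the 2173 to 9511 of the whole study. Paired spots correlated across clones at r = 0.689, 0.882 and 0.737. The SD of the log2 ratios was 0.31, 0.38 and 0.34, within the study's range of 0.22 to 1.35. A single array had the SD of 1.35, and the next widest had 0.69.

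The 3 susceptible arrays at 3 h resembled each other unequally. Across clones, replicates 2 and 3 correlated at r = 0.419 over 6764 shared clones, replicates 1 and 2 at r = 0.279 over 7356, and replicates 1 and 3 at r = 0.0426 over 7225. Clones on an array share its labelling and hybridisation and are not independent. A ratio of 2-fold or more in either direction was measured for 0.671% of the clones on replicate 1, 2.56% on replicate 2 and 1.03% on replicate 3. On replicate 2, 144 clones had a ratio of 2 or more and 56 a ratio of 0.5 or less, whereas on replicate 1 the counts were 25 and 35 and on replicate 3 they were 35 and 43. Replicate 2 thus had the most large ratios and replicate 1 the fewest.

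**Figure D1:**
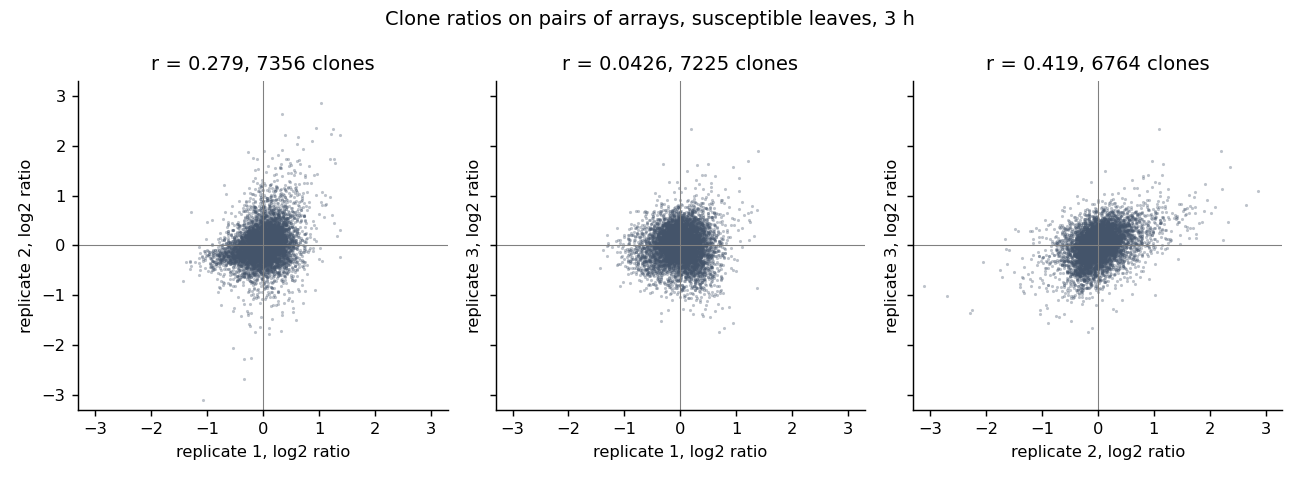
Each point is 1 clone, placed by its log2 ratio on 2 of the 3 arrays of susceptible leaves at 3 h, with the pair of replicates on the axes. The cloud is close to round for replicates 1 and 3 (r = 0.0426) and is drawn out along the diagonal for replicates 2 and 3 (r = 0.419).

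In susceptible leaves at 3 h no clone passed the test of TMV against mock, and of the genes with a symbol LOC102599567 alone passed. TMV RNA carried Cy3 and mock RNA Cy5 on every array. A response to TMV and a dye effect of a clone can therefore not be told apart in this test, nor in any ratio below. The limma test, with Benjamini-Hochberg adjustment, called 0 of 8219 clones (0%). The lowest adjusted p was 0.295. An unadjusted p under 0.05 was found for 427 clones, against 410.95 at that level if nothing differed. That count depended on the setting. It was 794 with the arrays scaled to 1 spread, 1046 in a fit of the 3 arrays alone and 1313 with array quality weights. Without replicate 2 it was 147 of 7225 clones. In RNA of whole leaves, fewer cells of a type and less RNA per cell cannot be told apart. The clones with an unadjusted p under 0.05 were 306 positive and 121 negative, or 487 and 307 with the arrays scaled to 1 spread, while all clones tested were split 4146 to 4071. With the clones of a symbol averaged, limma called 1 of 402 genes (0.249%). Where array quality weights were used the counts were 116 clones and 11 genes, and with any 1 of the 3 arrays left out they were 0 clones and 0 genes.

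The largest ratio was that of LOC102599567, a gene without a name in the annotation. Its single clone had log2 ratios of 1.38, 2.21 and 1.89 on replicates 1, 2 and 3, all positive and each past 2-fold. The mean was 1.83 ± 0.42 (SD, n = 3), a ratio of 3.55. The limma adjusted p was 0.0294 among the 402 genes and 0.295 among the 8219 clones. Without replicate 2 the mean was 1.64 and the adjusted p among genes 0.570, without replicate 1 it was 2.05 with 0.0543, and without replicate 3 it was 1.80 with 0.167. The call among genes therefore needs all 3 arrays, and the value itself stays above a 2-fold ratio without any 1 of them.

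RSI5 was the other clone with a ratio past 2-fold on all 3 arrays. Its log2 ratios were 1.04, 2.86 and 1.09, so that replicate 2 stood well above the other arrays. The mean was 1.66 ± 1.04 (SD, n = 3), or 1.06 without replicate 2, and the limma adjusted p was 0.481 over clones and 0.149 over genes. Over genes RSI5 passed with the arrays scaled to 1 spread, in a fit of the 3 arrays alone and with array quality weights (limma adjusted p = 0.0125, 0.0016 and 0.00114). STWRKY8, a WRKY transcription factor of a family that binds W-box elements in promoters of defence genes, had log2 ratios of 1.05, 1.07 and 0.73 for one clone and 1.10, 1.01 and 0.36 for its other clone. Both clones were positive on every array, with means of 0.95 ± 0.19 and 0.82 ± 0.41 (SD, n = 3). The average of both was 0.89 (limma adjusted p = 0.415 over genes), and it passed with array quality weights and in a fit of the 3 arrays alone.

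Among clones with 1 symbol and the same sign on all 3 arrays, the 10 with the smallest p in each direction were taken, 1 clone per symbol. None of these 20 passed the limma test over clones. After LOC102599567, RSI5 and STWRKY8, the positive ones were LOC102577893 at 0.92 ± 0.16 (SD, n = 3), LOC102577481 at 0.92 ± 0.61, LOC102596978 at 0.90 ± 0.32, LOC102585585 at 0.80 ± 0.42, LOC102577461 at 0.71 ± 0.63, STUGE45 at 0.56 ± 0.40 and LOC102577666 at 0.49 ± 0.010. LOC102577666 was the steadiest of them, with 0.48, 0.49 and 0.50 on the 3 arrays. STUGE45, a UDP-glucose 4-epimerase that interconverts UDP-glucose and UDP-galactose for cell wall synthesis, had 0.30, 1.02 and 0.34, so that replicate 2 was the high one. LOC102577893 had 1.10, 0.81 and 0.86, and its second clone averaged 1.07. LOC102596978 had 0.55, 0.98 and 1.18, and its 2 other clones averaged 0.67 and 1.00. LOC102577461 had 0.23, 1.43 and 0.48, and LOC102577481 had 0.50, 1.62 and 0.65. Without replicate 2 the means were 0.35 for LOC102577461, 0.57 for LOC102577481 and 0.32 for STUGE45. The largest of the 3 ratios fell on replicate 2 for 6 of these 10 clones. Over genes LOC102577461, LOC102577481, LOC102577666, LOC102577893, LOC102596978 and STUGE45 passed with array quality weights. LOC102577481, LOC102577893, LOC102585585 and LOC102596978 passed in a fit of the 3 arrays alone. LOC102577461 also passed with the arrays scaled to 1 spread.

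The negative ones had smaller ratios, apart from LOC102577514. Of them LOC102595943 and LOC102577514 alone had an unadjusted limma p under 0.05 over clones (0.000228 and 0.00597). For the others it was 0.0625 to 0.0732. LOC102577514 had -1.08, -3.10 and -0.81 and a mean of -1.66 ± 1.25 (SD, n = 3), with the most negative ratio on replicate 2 and a mean of -0.94 without it. Its other clone averaged -0.13, so the clones of that symbol differed. Over genes LOC102577514 had a limma adjusted p of 0.398. It passed with the arrays scaled to 1 spread, in a fit of the 3 arrays alone and with array quality weights. LOC102595943 had -0.60, -0.80 and -0.58 and a mean of -0.66 ± 0.12 (SD, n = 3), the closest agreement between arrays among the negative clones past -0.5. The others were LOC102577446 at -0.57 ± 0.29, LOC102598069 at -0.56 ± 0.46, LOC102577551 at -0.53 ± 0.23, LOC102577445 at -0.43 ± 0.20, LOC102577682 at -0.38 ± 0.19, LOC102580103 at -0.36 ± 0.23, LOC102580417 at -0.35 ± 0.27 and LOC102577905 at -0.34 ± 0.047. Without replicate 1 the means were -0.30 for LOC102598069 and -0.20 for LOC102580417. Of the 10 negative clones, 7 had their most negative ratio on replicate 1 and 3 on replicate 2. For the negative clones it was thus mostly replicate 1, and for the positive ones mostly replicate 2, that held the largest ratio.

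**Figure D2:**
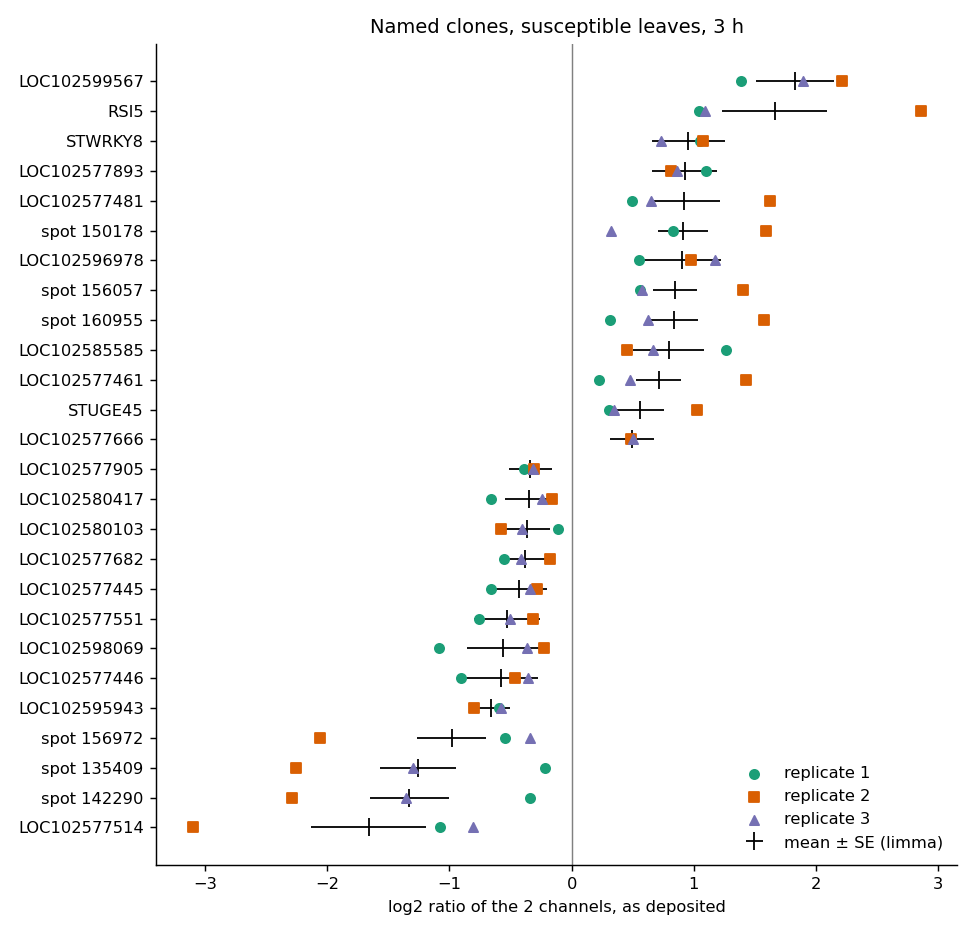
Log2 ratios as deposited (horizontal axis) of the 20 clones with a symbol and the 6 without one, marked by replicate, with the mean and its limma SE as a cross. Each clone has its 3 points on 1 side of 0 because that was a condition for its choice, and the orange squares of replicate 2 lie farthest out for RSI5 (2.86) and LOC102577514 (-3.10).

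Among the 6563 clones on all 3 arrays, 27 averaged 2-fold or more, 23 positive and 4 negative. Of the 27, 22 (81.5%) had no single symbol, beside 90.0% of the 6563. The 5 that carried one were LOC102599567, RSI5, LOC102577514, a clone of LOC102577893 and a clone of LOC102596978. All 27 had the same sign on all 3 arrays. The largest ratio was on replicate 2 for 22 of the 27, on replicate 3 for 5 and on replicate 1 for 0. By the rule for the smallest p, the unnamed clones with spot numbers 156057, 150178 and 160955 averaged 0.85 ± 0.49, 0.91 ± 0.64 and 0.84 ± 0.66 (SD, n = 3), and those with spot numbers 142290, 135409 and 156972 averaged -1.33 ± 0.97, -1.26 ± 1.02 and -0.98 ± 0.94. For 142290 the 3 ratios were -0.34, -2.29 and -1.36, and for 135409 they were -0.22, -2.25 and -1.30, so that these clones followed each other array by array. Their limma adjusted p was 0.331 and 0.363. Clone 156972 had -0.54, -2.06 and -0.34. Without replicate 2 the means were -0.85 for 142290, -0.76 for 135409 and -0.44 for 156972, and 0.57 for 150178, 0.47 for 160955 and 0.57 for 156057.

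Agreement of sign was more frequent than in the other groups of the study. Of the 6563 clones with a value on all 3 arrays, 2326 (35.4%) had the same sign on each, 1239 positive and 1087 negative. The share was 31.2% in susceptible leaves at 9 h and 25.3% in susceptible leaves at 27 h. In sun1-1 leaves it was 28.1% at 3 h, 17.7% at 9 h and 27.7% at 27 h. Over replicates 1 to 3 of resistant leaves it was 31.9% at 3 h, 23.2% at 9 h and 21.2% at 27 h. The difference between these shares was not tested, since clones of an array are not independent.

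Symbols with several clones show whether a ratio is that of a gene or of a single spot pair. In susceptible leaves at 3 h, 37 symbols had 4 or more measured clones, and for 19 of them every clone mean had the same sign, 7 positive and 12 negative. The 6 clones of LOC102595943 averaged between -0.68 and -0.49, the most negative of the 37 symbols, with a gene mean of -0.59 (limma adjusted p = 0.415). Over genes LOC102595943 passed with the arrays scaled to 1 spread, in a fit of the 3 arrays alone and with array quality weights. The 4 clones of LOC102584982 lay between -0.49 and -0.36, the 6 of LOC102580417 between -0.43 and -0.22 and the 7 of LOC102577446 between -0.57 and -0.18. These 3 symbols were most negative on replicate 1. On replicates 1, 2 and 3 the symbol means were -0.65, -0.28 and -0.33 for LOC102584982 and -0.67, -0.21 and -0.13 for LOC102580417. For LOC102577446 they were -0.74, -0.15 and -0.016 (limma adjusted p = 0.930 over genes). Clones of a symbol share the same 3 arrays, so their agreement adds no replicates. On the positive side, the 8 clones of LOC102577512 lay between 0.067 and 0.48 (gene mean 0.29, limma adjusted p = 0.839) and the 4 of LOC102577438 between 0.19 and 0.23. The SD of the clone means of a symbol had a median of 0.10, against an SD of 0.21 between the means of the 37 symbols.

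METK1, an S-adenosylmethionine synthetase that supplies the methyl donor of the cell and the precursor of ethylene, had 9 clones between -0.031 and 0.23, 7 of them positive. GAPDH, the glycolytic glyceraldehyde-3-phosphate dehydrogenase, had 8 clones between -0.17 and 0.10 on both sides of 0. In other symbols 1 clone stood apart: FLS, a flavonol synthase, had clone means of 0.025, -0.043 and 0.17 and 1 more at -0.72, and LOC102598069 had 4 negative clones and 1 at 0.52. Array by array, the clones of a symbol often went together while the arrays differed. The PPO clones, for polyphenol oxidase, which oxidises phenols in wounded tissue, had -0.066, 0.64 and -0.71 for one and -0.19, 0.66 and -0.77 for the other, so that both were positive on replicate 2 and negative on replicates 1 and 3.

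**Figure D3:**
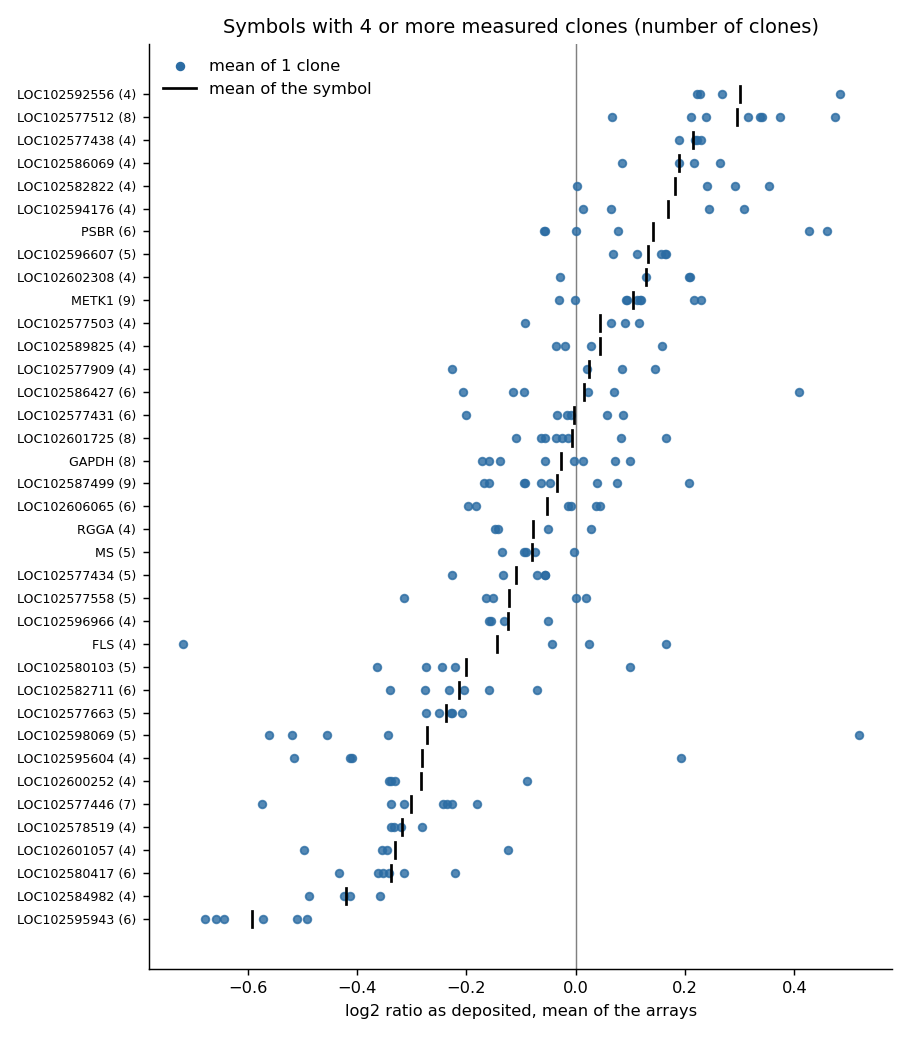
Mean log2 ratios over the arrays of susceptible leaves at 3 h (horizontal axis) for the clones of each symbol with 4 or more measured clones, with the mean of the symbol as a black bar and the number of clones in brackets. The 6 clones of LOC102595943 lie between -0.68 and -0.49, with the lowest symbol mean at -0.59, while the clones of GAPDH lie on both sides of 0.

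Among genes with a known function, 61 of the 66 in 11 lists were measured in susceptible leaves at 3 h, and limma called 0 of them, beside 1 of 402 for all genes. Their means were 31 positive and 30 negative with a median of 0.0077, and those of all genes were 206 positive and 196 negative with a median of 0.0078. The genes with a function were thus split as all genes were.

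Of the 6 defence genes, all were measured, 4 were positive and 2 negative, and the median was 0.26. RSI5 and STWRKY8 had the highest ratios of all 61 genes and PR1B the lowest. PR1B, a member of the PR-1 family that serves as a marker of salicylic acid signalling, had gene ratios of -0.23, -1.60 and -0.23, a mean of -0.69 ± 0.79 (SD, n = 3), and -0.23 without replicate 2. Its 2 clones had -0.23, -1.63 and -0.37 for one and -0.24, -1.58 and -0.092 for the other, so both showed the same low value on replicate 2. The limma adjusted p for PR1B was 0.839 over genes. VPE2, a vacuolar processing enzyme of the protease family that takes part in TMV-induced cell death in Nicotiana plants with N, had 0.30, 0.55 and 0.42, but its clones differed, with a mean of 0.93 for one and -0.084 for the other. XEGIP1, an inhibitor of xyloglucan-specific endoglucanases, had -0.18 and -0.97 on replicates 1 and 3 and no value on replicate 2. HRBP1, known for binding bacterial harpin, averaged 0.10 ± 0.27 (SD, n = 3).

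The redox genes lay nearer to 0. Of 6 genes 5 were measured, 1 was positive and 4 were negative, with a median of -0.095. CAT1, a catalase that breaks down hydrogen peroxide, had 0.14, -0.35 and -0.13. DHAR and DHAR2, dehydroascorbate reductases that recycle ascorbate, averaged -0.041 ± 0.078 and -0.095 ± 0.21 (SD, n = 3). GRX2, a glutaredoxin, had 0.29 and 0.44 on replicates 2 and 3. NAD(P)H:QR, a quinone reductase, had -0.71, 0.53 and -0.72, so that replicate 2 had the opposite sign to the others. Among the redox genes none had the same sign on all 3 arrays.

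Among the oxylipin and phenol genes HPL, the hydroperoxide lyase that forms the C6 aldehydes of wounded leaves, was positive on every array with 0.36, 0.22 and 0.20 (limma adjusted p = 0.839), and its 2 clones averaged 0.35 and 0.17. POTLX-3, a lipoxygenase, had -0.30, 0.89 and -0.18, the same pattern over arrays as PPO. Of the phenylpropanoid genes, F3H, the flavanone 3-hydroxylase of flavonoid synthesis, had 0.14, 0.92 and 0.91 and a mean of 0.66 ± 0.44 (SD, n = 3). Its limma adjusted p was 0.839 over genes, and 0.0476 in a fit of the 3 arrays alone. FLS, the enzyme that follows F3H toward flavonols, averaged -0.14 ± 0.24, and SHKA, a DAHP synthase at the entry of the shikimate pathway, averaged 0.042 ± 0.12.

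Central carbon and starch genes were split 8 positive to 9 negative over 17 measured genes of 18, with a median of -0.026. The glycolytic and respiratory enzymes kept close to 0: GAPDH averaged -0.026 ± 0.23, PGAM, a phosphoglycerate mutase, 0.11 ± 0.17, PK, a pyruvate kinase, -0.17 ± 0.28, and PDHE1-A, a subunit of pyruvate dehydrogenase, -0.096 ± 0.12 (SD, n = 3). LDH-2, a lactate dehydrogenase of fermentation, had -0.028, 0.48 and 1.14, a spread as wide as its mean of 0.53. GBSS, the granule-bound starch synthase that makes amylose, was positive on all arrays with 0.17, 0.40 and 0.40. STP-1, a starch phosphorylase, had -0.56 and -0.46 on replicates 1 and 3 and no value on replicate 2. TK, the transketolase of the Calvin cycle and the pentose phosphate pathway, had 0.030, -0.64 and -0.16. None of the central carbon and starch genes passed (limma adjusted p of 0.415 or more). STUGE45, also of this list, passed with array quality weights (limma adjusted p = 0.0485).

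The remaining lists held few genes. The 3 genes of S-adenosylmethionine and ethylene were all positive, with METK1 at 0.11 ± 0.34 (-0.086 without replicate 3), ARD, the acireductone dioxygenase of methionine salvage, at 0.20 ± 0.15 and the ethylene receptor ERS at 0.12 ± 0.25 (SD, n = 3). Of the chloroplast genes PSBR averaged 0.14 ± 0.30 and THF1, a thylakoid formation protein, -0.17 ± 0.41. The plasma membrane proton pumps PHA1 and PHA2 averaged -0.25 ± 0.46 and -0.072 ± 0.39, and both were negative on replicate 1 and positive on replicate 3. The other transport genes lay between -0.22 for the aquaporin XIP1-1-BETA and 0.20 for the potassium channel SKT3, with 2 of the 6 measured transport genes positive. The D-type cyclins CYCD3.2 and CYCD3.3 averaged -0.42 on 2 arrays and 0.0077 on 3.

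Transcription and hormone genes were 7 positive and 2 negative with a median of 0.085. NAC2, a NAC transcription factor, had 0.27 and 0.88 on replicates 1 and 3, and CO, the CONSTANS regulator of flowering, averaged 0.24 ± 0.40 (SD, n = 3). CDPK2, a calcium-dependent protein kinase, and PKIN1, a kinase, averaged 0.085 ± 0.13 and 0.037 ± 0.034. All 5 measured genes of amino acid and nucleotide synthesis were negative, with a median of -0.21, between -0.40 for PURM of purine synthesis and -0.039 for TS, the threonine synthase. BCAT1, a branched-chain aminotransferase, had -0.12, -0.45 and -0.10 and was the single one of them that was negative on 3 arrays. None of the transcription, hormone, amino acid or nucleotide genes passed the limma test over genes.

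**Figure D4:**
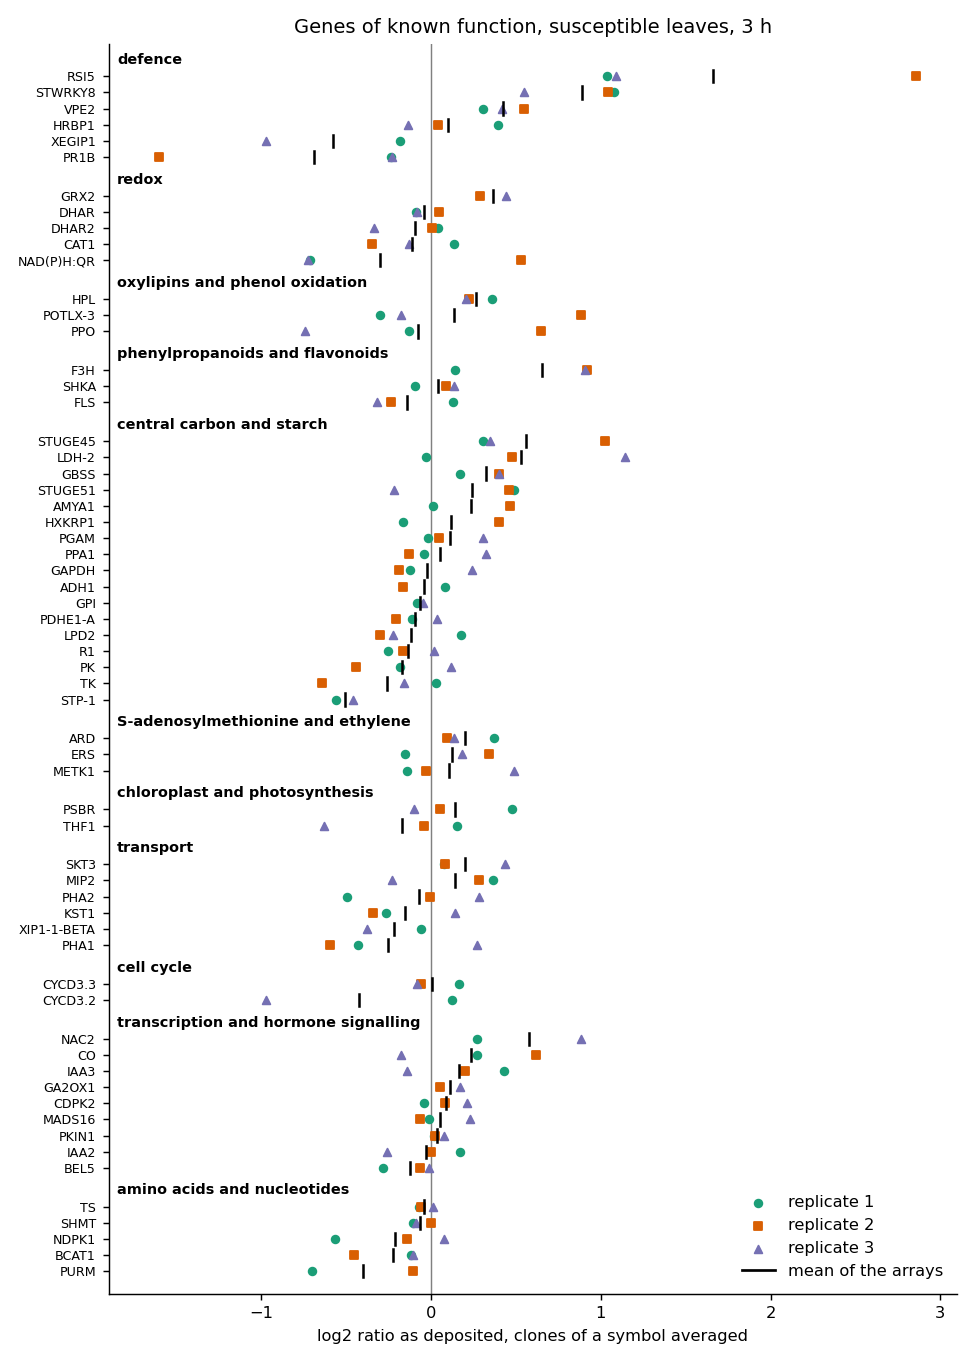
Log2 ratios as deposited (horizontal axis) of the 61 measured genes of known function in susceptible leaves at 3 h, with the clones of a symbol averaged, marked by replicate, and the mean of the arrays as a black bar. RSI5 and STWRKY8 lie highest, at 1.66 and 0.89, PR1B lies lowest at -0.69, and most other genes lie within 0.5 of 0 with arrays on both sides.

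Susceptible leaves at 3 h were next set against resistant leaves and sun1-1 leaves at 3 h, and against susceptible leaves at 9 and 27 h. Groups of different genotypes share no plants, and the fit treated all groups as independent. In limma, 0 of 5949 clones differed between susceptible and resistant leaves at 3 h (0%, 91 at an unadjusted p under 0.05). Between susceptible and sun1-1 leaves at 3 h 0 of 6823 differed (0%, 341 unadjusted), and between 3 h and the mean of 9 and 27 h in susceptible leaves 0 of 5939 differed (0%, 173 unadjusted). The lowest adjusted p was 1.00, 0.920 and 0.999 for these 3 differences. A ratio in susceptible leaves at 3 h can therefore not be called particular to that genotype or time for any clone. The sun1-1 group at 3 h holds the array of the widest spread of the study (replicate 3, SD 1.35). Without it 0 clones differed in each of the 3 comparisons.

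The ratios at 3 h were most like those of resistant leaves at 3 h. Across the 5946 clones with nonzero means on at least 2 arrays of both groups, the group means correlated at r = 0.551, and 70.0% of clones had the same sign. For susceptible leaves at 9 h r was 0.415 with 62.7% of the same sign, and at 27 h r was -0.039 with 46.7%. For sun1-1 leaves at 3 h r was 0.172 with 58.3%. The sun1-1 means include replicate 3, the array with an SD of 1.35, and r without it was not computed. All arrays carried TMV RNA in Cy3 and mock RNA in Cy5, so a dye effect of a clone would enter each of these means alike, and its part in the likeness was not tested. The sign of the named clones, chosen on the susceptible arrays at 3 h, can be read in the other groups with these shares as background.

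In resistant leaves at 3 h all 10 positive clones with a symbol were positive as well, with a median of 0.34 against 0.91 in susceptible leaves at 3 h. Of the 8 measured negative ones 8 were negative, with a median of -0.48 in both groups. The clones were chosen by their p on the susceptible arrays at 3 h, so these medians do not compare the size of the ratios between groups. In susceptible leaves at 9 h 9 of 10 positive and 10 of 10 negative clones kept their sign. In susceptible leaves at 27 h 6 of 9 positive and 2 of 8 negative clones had the sign of 3 h. In sun1-1 leaves at 3 h 7 of 9 positive and 6 of 9 negative clones did.

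LOC102599567, the gene called above, had log2 ratios of 1.38, 2.21 and 1.89 in susceptible leaves at 3 h. On 3 arrays of resistant leaves it had 0.049, 0.70 and 0.20. The difference was 1.51 ± 0.45 (SE, limma unadjusted p = 0.00515, adjusted p = 1.00 over 5949 clones). In sun1-1 leaves at 3 h it had 0.070 and -0.32, and the difference was 1.95 ± 0.50 (SE, limma adjusted p = 0.920). These were the smallest unadjusted p-values among clones with a symbol in both differences, and neither passed over clones. Over genes in limma, the difference to resistant leaves passed with the arrays of both groups alone (adjusted p = 0.0476 over 352 genes), and that to sun1-1 leaves passed with array quality weights (adjusted p = 0.0340 over 367 genes). In susceptible leaves at 9 h LOC102599567 had 1.10 and 0.26, and at 27 h its single value was -0.23, which left it untested against the later times.

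RSI5 had 1.04, 2.86 and 1.09 in susceptible leaves at 3 h, against 0.77, 1.74, 0.62 and 1.18 in resistant leaves, and the groups overlapped. It was positive on all 4 resistant arrays and on both measured sun1-1 arrays (0.23 and 0.29). In susceptible leaves it had 1.85, 0.32 and 0.27 at 9 h and -0.50, 0.83 and -0.037 at 27 h. STWRKY8, over its clones, averaged 0.89, 0.51 and 0.25 in susceptible leaves at 3, 9 and 27 h. At 3 h the mean of 0.89 in susceptible leaves stood beside 0.55 in sun1-1 and 0.75 in resistant leaves. No difference of STWRKY8 between groups passed (limma adjusted p of 0.947 or more over genes). PR1B averaged -0.69 in susceptible leaves at 3 h, against 0.35 in sun1-1 and 0.11 in resistant leaves, with SDs of 0.79, 0.96 and 0.63. The limma adjusted p was 0.839 for the difference of PR1B to sun1-1 and 1.00 for that to resistant leaves.

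LOC102595943 had the smallest p among clones with a symbol for the change over time. Its clone had -0.60, -0.80 and -0.58 in susceptible leaves at 3 h, -0.41, 0.13 and -0.29 at 9 h, and 0.021, 0.019 and 0.037 at 27 h. The difference of 3 h to the mean of the later times was -0.58 ± 0.19 (SE, limma unadjusted p = 0.00496, adjusted p = 0.999 over 5939 clones). Its 5 other clones had a difference in the same direction. In resistant leaves at 3 h the clone had -0.86, -0.55, -0.25 and -0.42, which overlapped the susceptible values. LOC102577461 and LOC102594491 followed, with differences to the later times of 0.69 ± 0.23 and 0.64 ± 0.25 (SE), and neither passed.

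The other clones with the smallest p between genotypes had small ratios in susceptible leaves at 3 h. LOC102581985 had -0.028, 0.94 and 0.24 in susceptible leaves, against -0.58, -0.52, -0.38 and 0.021 in resistant leaves, a difference of 0.75 ± 0.27 (SE) that its 2 other clones shared in direction. LOC102577562 averaged -0.12 in susceptible leaves and -0.61 in resistant leaves. Against sun1-1, the second difference was that of 1 clone of LOC102580103, with a mean of 0.099 in susceptible leaves and 1.49 in sun1-1 leaves, where the 2 values were 0.73 and, on replicate 3, 2.25. Of the 4 other clones of LOC102580103, 1 differed in the same direction. LOC102577512 differed by 0.92 ± 0.33 (SE) from sun1-1, and by 0.33 without sun1-1 replicate 3. None of these differences passed in limma over all clones.

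**Figure D5:**
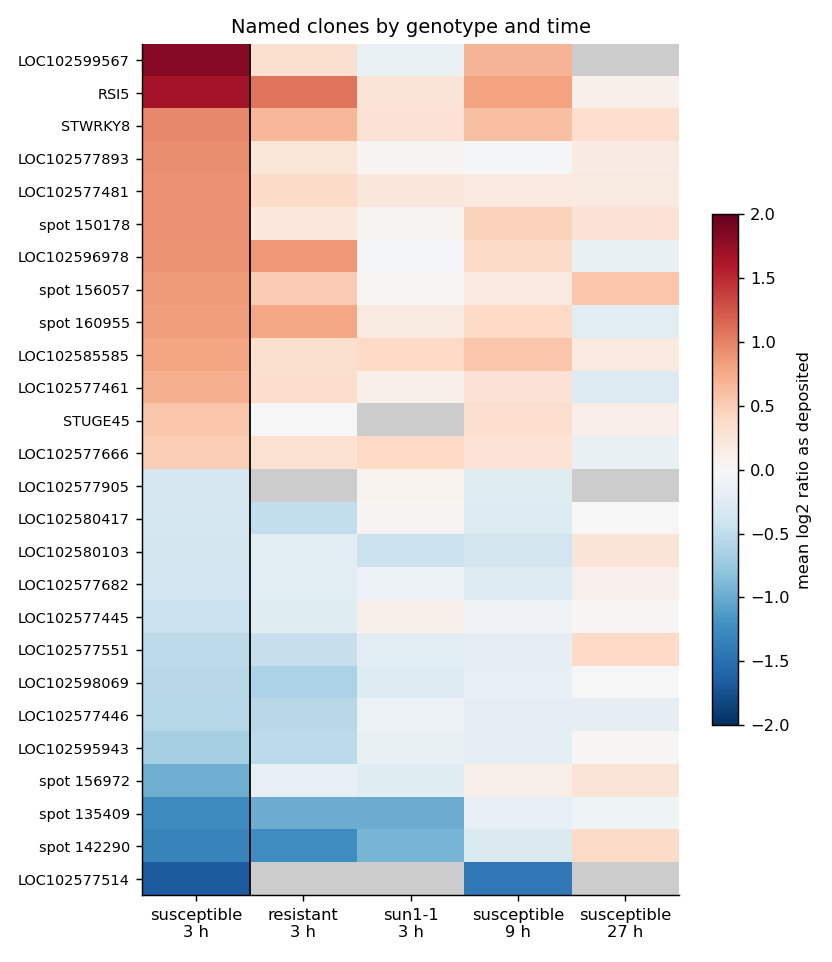
Mean log2 ratios as deposited, on a colour scale from -2 to 2, of the 20 clones with a symbol and the 6 without one (rows) in susceptible leaves at 3 h (left of the line) and in resistant leaves at 3 h, sun1-1 leaves at 3 h and susceptible leaves at 9 and 27 h. Grey marks a clone with a value on fewer than 2 arrays. Colours run alike in susceptible and resistant leaves at 3 h, where all 10 positive and 8 of 8 measured negative symbols share their sign, and not at 27 h, where 2 of 8 negative ones do.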

How the data were processed

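The authors deposited 1 log2 ratio per spot and array, centred on about 0. Per the submitters' processing notes limma was used, with no version stated. How background was corrected, arrays normalised, spots filtered and slides scanned is not given in the sources used here. Base 2 follows from the numbers themselves, as all 5154 at a 2-fold decrease or more lie on the log2 of a ratio with 2 decimals. No intensities were used here, so signal over background is not known.

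Paired spots of a clone were averaged (Python 3.11.15, pandas 2.3.3). The values of sun1-1 27 h replicate 2 sat 1 row off and were moved back: the mean size of r with the other arrays was 0.174 after the move and 0.0120 before. It enters through the residual spread alone. Symbols are those of the platform annotation: 815 clones carry 1 symbol (430 symbols), 90 several and 14455 none. Of the 430 gene identifiers 0 matched the tomato table, so functions are those of the symbol.

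A model with 1 mean for each of 9 groups was fitted to all 30 arrays with limma 3.58.1 in R 4.3.3, with 1 residual spread per clone. Clones or genes needed values on 2 or more arrays of each group compared. P-values are two-sided, Benjamini-Hochberg adjusted over all features of a comparison, with a threshold of 0.05. Per the labels the experiment was repeated and each RNA came from 1 plant, and p-values measure the spread between these arrays. Data were simulated for the 8219 clones with independent normal noise and the same spread of a clone on every array. Of 100 clones changed by 1 on the log2 scale 64% were recovered, and of 100 changed by 2 97%, with 10 false calls. The real arrays differ in spread and their clones are not independent, so these shares do not give the power of the test on the real data.

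Clones were named by a rule: those called, the 10 of smallest p in each direction with 1 symbol and the same sign on 3 arrays, the 3 without symbol in each direction, every gene of 11 function lists, and the 3 of smallest p for each difference. The members and lists were chosen with earlier results of these data known, and 2 lists (transcription and hormones, amino acids and nucleotides) after the annotation was read. Alternatives were centring, scaling, the arrays of the groups alone, clones on all arrays, both spots required, array quality weights, a robust prior, the replicate number as a block, and arrays left out.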

Additional observations from a re-analysis of the deposited data

Results flagged for a closer look

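Among 57 sets of 4 resistant arrays at 3 h, the groups of 4 set beside the named clones and genes, 3 held an array far from the others, where about 1 in 20 would by chance. The clone of LOC102585585, which averaged 0.80 in susceptible leaves at 3 h, had 1.36 on resistant replicate 4, against -0.18 to 0.063 on the other resistant arrays. The clone of LOC102598069, at -0.56 in susceptible leaves, had -0.058 on resistant replicate 2, with -0.88, -0.84 and -0.77 on the others. DHAR, at -0.041 in susceptible leaves, had 0.57 on 1 resistant array.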

How the results depend on the processing

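For susceptible leaves at 3 h, the count of clones called by limma was 0 as reported, 3 with arrays scaled to 1 spread, 1 with the susceptible arrays alone and 116 with array quality weights (98 positive, 18 negative). It was 0 with the other alternatives, among them leaving out each array in turn (0 to 0). The count of genes called was 1 as reported, 5 with scaling, 14 with the susceptible arrays alone, 11 with array quality weights, 0 with an array left out (0 to 0) and 0 with the replicate block. The block could be fitted to 325 genes, without LOC102599567, so its call was not tested there. LOC102599567 was among the genes called in each setting that called any. Why these settings gave more calls was not tested. Over clones, the 3 differences to other groups gave 0 calls under every alternative. Over genes, LOC102599567 alone was called, against resistant leaves with the arrays of the groups compared (1 of 352) and against sun1-1 leaves with array quality weights (1 of 367). Of 71 genes, 16 changed sign under an alternative, none of them by centring or scaling. In the groups compared, same-numbered arrays did not all deviate together (correlations with resistant leaves at 3 h of 0.014 to 0.30, with sun1-1 at 3 h of -0.075 to 0.14, with susceptible leaves at 9 h of -0.31 to -0.024 and at 27 h of -0.31 to 0.035), so the numbers were not taken as pairs, and the block called 0 clones. Among the other groups of the fit, the correlations with sun1-1 at 27 h were 0.26, 0.25 and 0.12, those with resistant leaves at 27 h 0.59, 0.21 and -0.16, and those with either genotype at 9 h were all below 0. With a median SE of 0.20 on the log2 scale over clones on 3 arrays, small differences were not detectable.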
